A study of Mus musculus with 16 samples.

Results

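Il6, Il10, Lif and Osm encode the cytokines interleukin-6, interleukin-10, leukemia inhibitory factor and oncostatin M. They were chosen by their gene symbols, as 4 of the 22287 genes in the deposited table, and all 4 passed the filter on low counts that left 12514 genes for the tests. The study measured RNA of bone marrow derived macrophages (BMDMs), which grow from the bone marrow of mice under a growth factor. Bone marrow of C57BL/6J mice aged 8 weeks, with no genetic change named in the labels, was cultured for 7 days with GM-CSF (GM) or M-CSF (M). The dishes were treated to promote cell adhesion (TC) or untreated (noTC), and the cells were left at steady state or challenged for 3 h with LPS, a component of the outer membrane of Gram-negative bacteria. The 8 groups are named by growth factor and dish (for example GM-TC or M-noTC), with -LPS added upon LPS challenge and no addition at steady state, with 2 libraries each and 16 libraries in all. The study asked how the dish surface alters gene expression of both kinds of BMDMs at steady state and upon LPS challenge. GM and M cultures each hold more than a single cell subpopulation by the study's own flow cytometry, so a level below is that of a whole culture.

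IL-6, LIF and OSM are related cytokines whose receptor complexes share the subunit gp130, encoded by Il6st. Beside gp130, IL-6 uses the receptor of Il6ra, LIF that of Lifr and OSM that of Osmr. The JAK kinases bound to these receptor complexes then phosphorylate STAT3. IL-10 signals to STAT3 as well, through receptors encoded by Il10ra and Il10rb, and is known for damping the inflammatory output of macrophages, whereas IL-6 made by macrophages drives the acute phase response.

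The sequences printed next are those through which expression of such cytokines is commonly regulated, the promoter and the AU-rich stretches of the mRNA. RefSeq sequences of build GRCm38.p6 were at hand for the promoters of 2 members, Il6 and Lif. The 250 bases before each start site are given from 5′ to 3′ on the plus strand, at chr5:30012864-30013113 for Il6 and chr11:4257318-4257567 for Lif. Capitals mark matches to binding motifs of factors known to act downstream of LPS, searched on both strands.
Il6: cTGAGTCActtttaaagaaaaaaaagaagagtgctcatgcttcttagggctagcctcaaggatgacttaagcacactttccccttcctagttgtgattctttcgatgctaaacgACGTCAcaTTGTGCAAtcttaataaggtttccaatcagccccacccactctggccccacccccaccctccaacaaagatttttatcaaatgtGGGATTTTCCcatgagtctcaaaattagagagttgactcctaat
Lif: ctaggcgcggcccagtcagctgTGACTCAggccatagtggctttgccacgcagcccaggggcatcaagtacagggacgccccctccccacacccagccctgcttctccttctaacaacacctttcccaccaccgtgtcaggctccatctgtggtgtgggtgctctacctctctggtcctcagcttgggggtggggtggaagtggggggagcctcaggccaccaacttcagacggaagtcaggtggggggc

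The Il6 window held 1 match each to the NF-κB consensus, to the AP-1 motif TGANTCA, to the CREB motif TGACGT and to the C/EBP motif TTGNGNAA. The Lif window held 1 match, to TGANTCA, and neither window held the STAT motif TTCNNNGAA. Of 32851 promoter windows of this length, 3.90% held the NF-κB consensus, 6.75% TGANTCA, 6.47% TGACGT, 11.7% TTGNGNAA and 7.02% TTCNNNGAA. These are matches of letters, and no binding was measured.

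The mRNAs of all 4 members hold the AU-rich pentamer ATTTA, which proteins such as that of Zfp36 bind to shorten the life of an mRNA. For each member, the 30 bases of the 3′ UTR with the most pentamers are shown with the pentamers in capitals, from the GENCODE M21 transcripts (build GRCm38, plus strand). For Il10 no 30 bases held more than 1 pentamer, so the stretch shown is only the first of several that tie. They lie at chr5:30019677-30019706 for Il6, chr1:131024372-131024401 for Il10, chr11:4272414-4272443 for Lif and chr11:4240939-4240968 for Osm.
Il6: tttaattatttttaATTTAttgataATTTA
Il10: cctcgtttgtacctctctccgaaatATTTA
Lif: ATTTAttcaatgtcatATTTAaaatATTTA
Osm: aatccgttttatATTTAtaaggcctATTTA

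The 3′ UTR of Il6 held 6 pentamers in 427 bases, that of Il10 6 in 706, that of Lif 7 in 3180 and that of Osm 6 in 1017. This is 14.1, 8.50, 2.20 and 5.90 pentamers per kb, beside a median of 1.2 per kb over the 3′ UTRs of 20484 genes. The Lif 3′ UTR also held 2 copies of the nonamer TTATTTATT, which the other 3 lacked and 7.21% of the genes hold at least once. The 4 genes differ in where they lie. Osm and Lif are neighbours on the same strand of chromosome 11, and Il10 lies beside Il19, a ligand of its own family, on chromosome 1. No annotated gene overlaps any of the 4, so their counts are not shared with an overlapping or antisense gene of that annotation.

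Total counts per library lay between 17527802 and 31458363. Levels are CPM, counts relative to the library total, scaled with TMM factors, and 3 counts, used as a floor for counting error, are 0.0697 to 0.174 CPM. The summed level of 8 macrophage markers lay between 20530 and 47800 CPM. Of 10 neutrophil markers, 9 or 10 had a count in each GM group, at a sum of 13.2 to 44.8 CPM, and 5 or 6 in each M group, at 0.337 to 2.16 CPM, with Elane, Mpo, Ly6g and Retnlg at 0 in all M libraries. The sum of 7 dendritic cell markers was 46.1 to 84.9 CPM in GM and 1.08 to 4.54 CPM in M, while Cd3e of T cells was at 0 in each library. The sums over markers of mast cells and basophils (0.0337 to 6.48 CPM), B cells (0.201 to 1.33 CPM), T and NK cells (0.120 to 1.59 CPM) and stromal cells (1.21 to 17.4 CPM) were low. The steady-state TC libraries stood apart in heart and muscle RNA, since 7 of 7 such markers summed to 19.7 to 55.0 CPM there and to at most 0.474 CPM in the other 12 libraries. The part of these RNAs in the results below was not tested, and in a culture, more cells making a transcript and more transcript per cell cannot be told apart.

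Il6 was nearly silent in TC cells at steady state and was abundant in each culture upon LPS challenge. In GM-TC it had 0.303 and 0.201 CPM, from 6 and 5 counts, and in M-TC 1 count in 1 library and 0 in the other. In noTC cells it reached 6.03 and 7.50 CPM in GM-noTC and 6.33 and 5.04 CPM in M-noTC, above both TC groups without overlap. Upon LPS challenge it rose to 1951 and 2085 CPM in GM-TC-LPS, 1957 and 1877 CPM in GM-noTC-LPS, 1344 and 1642 CPM in M-TC-LPS, and 1325 and 1544 CPM in M-noTC-LPS. In these levels, before the subtraction described below, the order of the 8 groups was set first by LPS. Growth factor came next among LPS-challenged cells, and dish among resting cells. After the subtraction, GM-noTC had a library above and a library below those of GM-TC, so the dish order of resting GM cells did not hold. In resting M cells it held, with the limits given there. The dishes overlapped within GM and within M upon LPS challenge, as did GM-noTC and M-noTC at steady state.

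Il10 showed another pattern, with a higher level in M than in GM cells on each dish and in each state. It had 0 counts in both GM-TC libraries and 3 and 0 counts in GM-noTC, beside 2.99 and 2.32 CPM in M-TC and 0.775 and 0.836 CPM in M-noTC. Upon LPS challenge it reached 44.1 and 53.7 CPM in M-TC-LPS and 23.5 and 28.6 CPM in M-noTC-LPS. GM-TC-LPS had 0.465 and 0.511 CPM, from 9 and 11 counts, and GM-noTC-LPS 0.237 and 0.228 CPM, from 5 counts in each library. The M groups did not overlap with each other, LPS-challenged GM cells stayed below resting M-noTC cells, and TC cells were above noTC cells in each pair of groups other than resting GM.

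Lif was higher in GM than in M cells on each dish and in each state. It had 0.808 and 0.765 CPM in GM-TC and 0.815 and 0.739 CPM in GM-noTC at steady state, from 16 to 20 counts per library, whereas both M-TC libraries and 1 M-noTC library had 0 counts and the other M-noTC library 1 count. Upon LPS challenge Lif had 17.1 and 15.8 CPM in GM-TC-LPS and 19.3 and 20.5 CPM in GM-noTC-LPS. In M cells it had 1.48 and 1.69 CPM in M-TC-LPS and 2.82 and 3.24 CPM in M-noTC-LPS. All LPS-challenged libraries were above all resting libraries, and noTC was above TC within each growth factor upon LPS challenge.

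Osm was the member with a readily detected level in all 16 libraries. At steady state it had 7.67 and 7.85 CPM in GM-TC cells and 5.87 and 5.47 CPM in GM-noTC cells, beside 2.27 and 2.66 CPM in M-TC cells and 2.80 and 3.07 CPM in M-noTC cells. Upon LPS challenge it had 25.9 and 25.6 CPM in GM-TC-LPS, 24.9 and 21.5 CPM in GM-noTC-LPS, 9.06 and 11 CPM in M-TC-LPS, and 9.34 and 10.7 CPM in M-noTC-LPS. GM was above M on each dish and in each state, and the dishes overlapped for M cells upon LPS challenge.

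**Figure D1:**
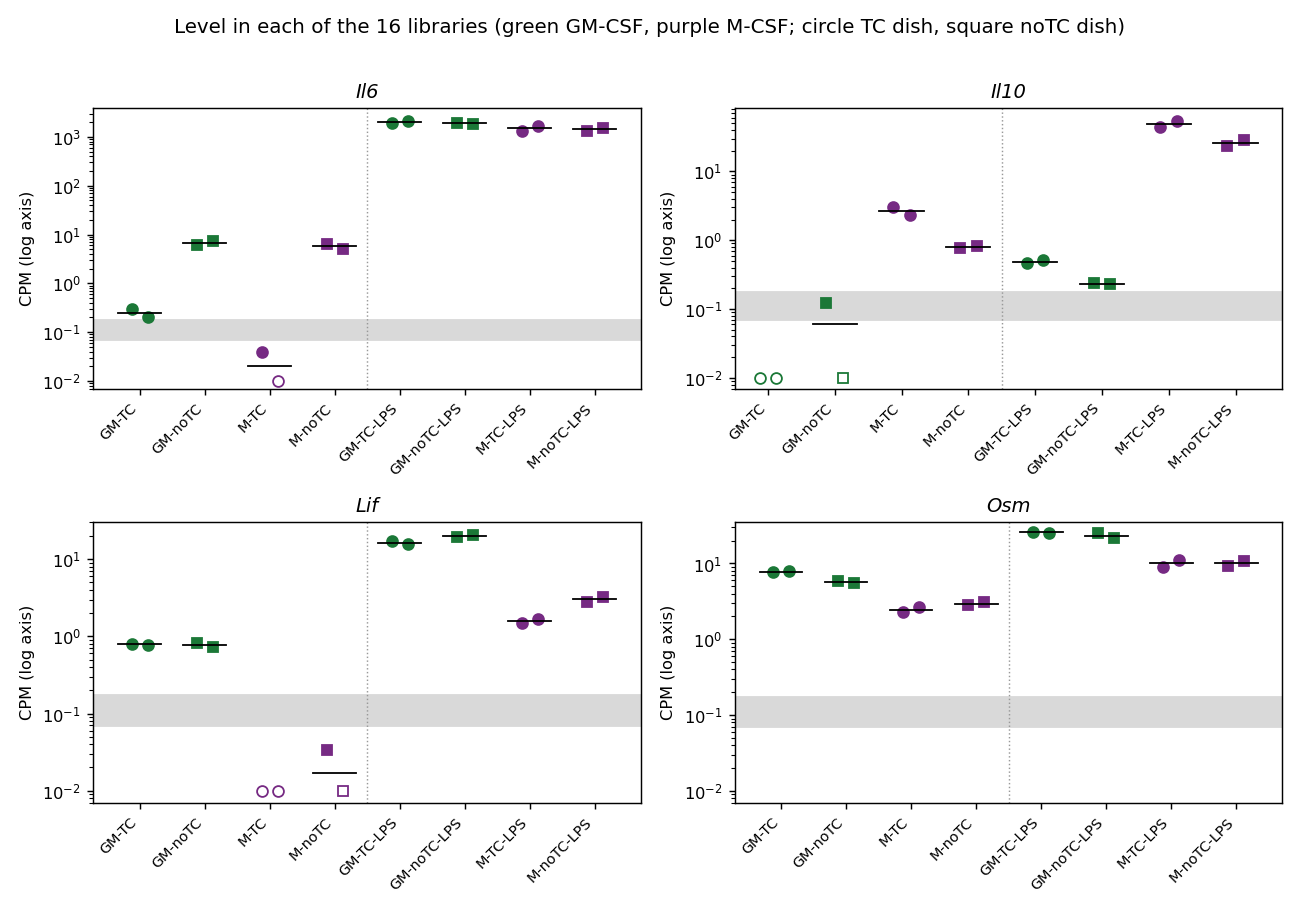
TMM-scaled CPM on a log axis for each library of the 8 groups, with steady state left and LPS right of the dotted line. Points are libraries, black bars group means, open points at the bottom libraries with 0 counts, and the grey band the range of the 3-count floor (0.0697 to 0.174 CPM). In these levels, before the subtraction described below, Il6 separates by LPS and, at steady state, by dish, Il10 by M against GM, and Lif and Osm by GM against M.

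Levels can be compared between the 4 genes only per length. Per kb of exon (GENCODE M21), Il6 was at 831 CPM in GM-TC-LPS, followed by Osm at 11.3, Lif at 3.78 and Il10 at 0.373. In M-TC-LPS the order was Il6 at 615 CPM per kb, Il10 at 37.3, Osm at 4.42 and Lif at 0.363. In resting M-TC cells Il10 led with 2.03 CPM per kb over Osm with 1.09, and in resting GM-TC cells Osm led with 3.42 over Lif with 0.181 and Il6 with 0.104. The same order held on noTC dishes upon LPS challenge, while at steady state Il6 led in noTC cells, with 2.79 CPM per kb in GM-noTC and 2.34 in M-noTC. That lead turned when the share of other libraries described below was taken off, to 0.175 and 0.414 CPM per kb for Il6 beside 2.46 and 1.26 for Osm.

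The LPS response asks how far each transcript rose within 3 h. Differences are log2 values with their standard error (SE), and adjusted p-values come from edgeR's quasi-likelihood test with Benjamini-Hochberg (BH) adjustment over the 12514 genes. In GM-TC all 4 members rose, against a background of 32.8% of tested genes called higher (34.2% were called lower). In GM-noTC 3 of 4 rose (33.6% of genes higher, 34.0% lower). In M-TC 4 of 4 rose (37.6% higher, 36.4% lower), and in M-noTC 4 of 4 (36.4% higher, 35.9% lower). Scaled by library size only, which moved the median gene upon LPS from values near 0 to between -0.83 and -0.53 on the log2 scale, 16.1% to 17.2% of genes were higher and 62.7% to 69.1% lower, and the calls of the 4 members were the same.

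Il6 rose by 12.97 ± 0.18 on the log2 scale in GM-TC (SE, n = 2 per group; adjusted p = 7.77e-24), 8.14 ± 0.12 in GM-noTC (2.98e-23) and 8.00 ± 0.12 in M-noTC (3.09e-23). In M-TC, where resting cells had 1 count, the ratio was 76720 with a 95% counting interval from 13770 to 3030000. The fold changes differed mainly with the resting level, since the LPS-challenged levels of all 8 libraries lay between 1325 and 2085 CPM. Il10 rose by 4.2 ± 0.16 in M-TC and 5.0 ± 0.19 in M-noTC (edgeR adjusted p = 8.25e-16 and 8.6e-16). In GM-TC, at 0 counts without LPS, it rose at least 3.22-fold (adjusted p = 2.52e-04). In GM-noTC the ratio was 4.0, with a counting interval from 1.03 to 22.6, and did not pass the test (adjusted p = 0.0758), although it did without the GM-noTC library that held the 3 counts (0.0137).

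Lif rose by 4.38 ± 0.19 in GM-TC and 4.67 ± 0.18 in GM-noTC (edgeR adjusted p = 1.65e-14 and 2.14e-15). In M cells the resting level was at or under the floor, and Lif rose at least 13.2-fold in M-TC and by a ratio of 221 (counting interval 38.9 to 8794) in M-noTC (adjusted p = 2.69e-09 and 4.53e-12). Osm rose by a similar amount in each culture, by 1.73 ± 0.12 (TC) and 2.03 ± 0.12 (noTC) for GM and 2.02 ± 0.15 (TC) and 1.77 ± 0.14 (noTC) for M cells. Its adjusted p-values lay between 9.37e-13 and 1.3e-10, and its libraries did not overlap between resting and LPS-challenged cells.

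**Figure D2:**
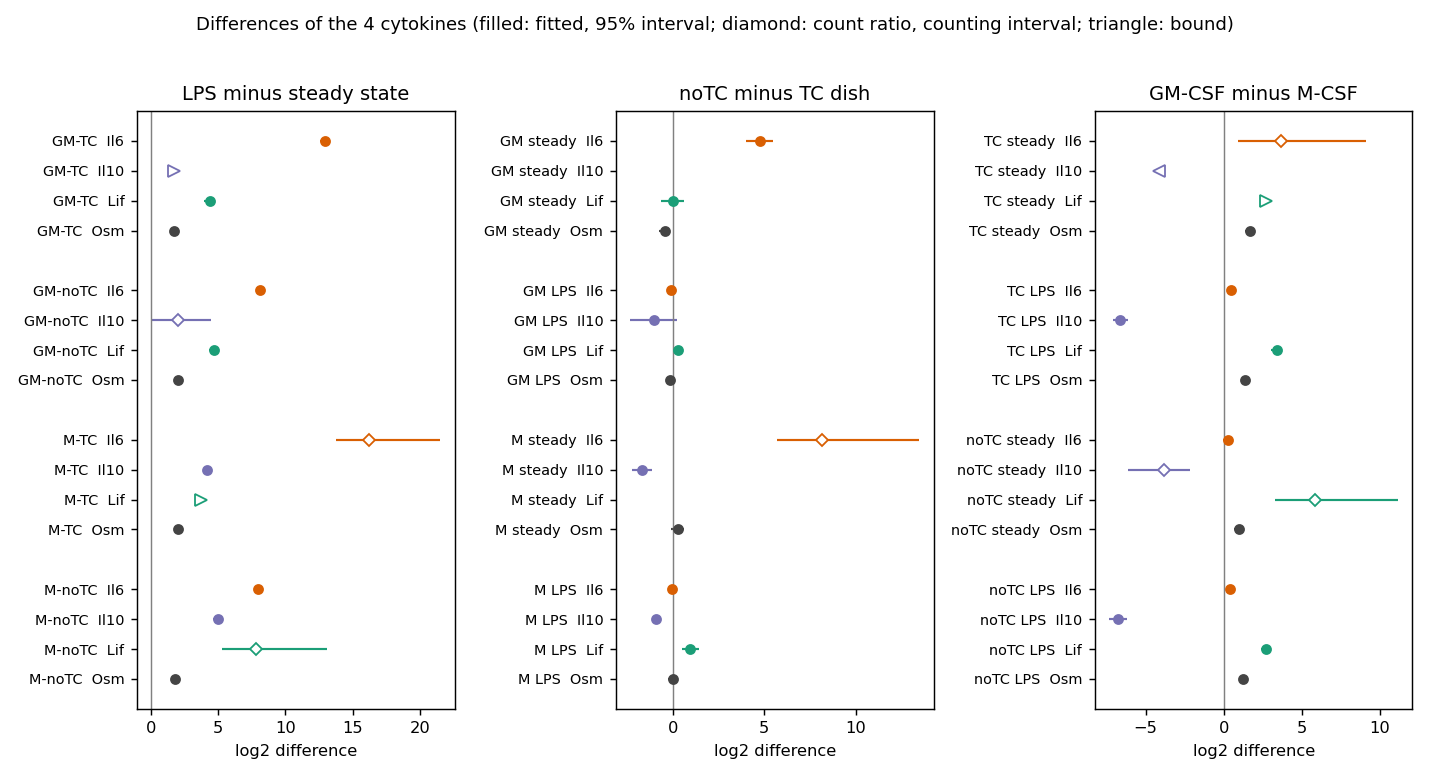
Log2 differences of the 4 members for LPS minus steady state, noTC minus TC dish and GM-CSF minus M-CSF. Filled points are fitted values with 95% intervals, diamonds ratios of counts with counting intervals where a group had 1 to 3 counts, triangles lower bounds where a group had 0 counts, and an empty line means that both groups were at or under the floor. Il6 differs between dishes at steady state (4.76 in GM, but 0.85 and not called after the subtraction described below) and not detectably upon LPS. Il10 lies far below 0 for GM-CSF minus M-CSF.

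The growth factor separated the members into a GM side, with Osm and Lif, and an M side, with Il10. On TC dishes at steady state 4 of 4 members were called, beside 61.5% of tested genes, and upon LPS challenge 4 of 4 beside 66.8%. On noTC dishes 3 of 4 were called at steady state, beside 62.1%, and 4 of 4 upon LPS, beside 66.1%. Since most genes differed between GM and M cells, the number of calls says little about these 4, and the sizes are given instead. Il10 was lower in GM than in M upon LPS challenge, with log2 differences of -6.63 ± 0.22 on TC and -6.78 ± 0.27 on noTC dishes (edgeR adjusted p = 2.35e-16 and 3.31e-15). At steady state it was at least 17.5-fold lower in GM-TC than in M-TC, and in M-noTC it was above GM-noTC by a ratio of 14.0 (counting interval 4.55 to 69.6).

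Lif was higher in GM upon LPS by 3.38 ± 0.18 on TC and 2.71 ± 0.15 on noTC dishes (edgeR adjusted p = 4.27e-13 and 1.58e-12). At steady state it was at least 6.57-fold higher in GM-TC than in M-TC, with a ratio of 56.4 (9.56 to 2282) on noTC dishes. Osm was higher in GM by 1.65 ± 0.16 and 0.94 ± 0.15 at steady state and by 1.36 ± 0.11 and 1.21 ± 0.11 upon LPS, on TC and noTC dishes respectively, with adjusted p-values between 5.88e-10 and 7.66e-06. For Il6 the growth factor difference was smaller than that of the other 3 upon LPS and in resting noTC cells, but not in resting TC cells. It was higher in GM upon LPS by 0.43 ± 0.08 on TC and 0.42 ± 0.08 on noTC dishes (adjusted p = 8.78e-05 and 1.35e-04), and its difference on noTC dishes at steady state, 0.28 ± 0.16, did not pass (0.138). On TC dishes at steady state, 11 counts in GM against 1 in M gave a ratio of 12.8 (1.86 to 549; adjusted p = 0.0308), and this call was lost without GM-TC replicate 1 (0.145), GM-TC replicate 2 (0.0721) or M-TC replicate 2 (0.155).

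Where at least 1 group lay above the floor, the dish comparison gave its largest values for Il6 at steady state and for Il10 in resting M cells. The Il6 call in GM was lost after the subtraction described below (log2 difference 0.85, edgeR adjusted p = 0.731). In resting GM cells 2 of 4 members were called, beside 7.54% of tested genes. Il6 was higher on noTC than on TC dishes by 4.76 ± 0.35 on the log2 scale (edgeR adjusted p = 6.3e-09), and Osm was lower by 0.46 ± 0.13 (adjusted p = 0.0417). The Osm call was lost without GM-TC replicate 2 (0.157), GM-noTC replicate 1 (0.131) or GM-noTC replicate 2 (0.247), with DESeq2 (0.0965), and when only these 4 libraries were fitted (0.144). Lif differed by -0.02 with a 95% interval from -0.67 to 0.64, and Il10 was at or under the floor in both groups. Upon LPS challenge 0 of 4 members were called in GM cells, beside 2.80% of genes, with log2 differences of -0.07 for Il6, -1.06 for Il10 (from 20 counts against 10), 0.28 for Lif and -0.15 for Osm. The interval for Il6 ran from -0.25 to 0.10. At an unadjusted p under 0.05 edgeR called 1 of 4 (Lif, 0.0353), and DESeq2 with adjustment called 0. The unadjusted p of the other 3 was 0.0965 or higher.

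In resting M cells 2 of 4 members were called, beside 27.2% of genes. Il6 was higher on noTC dishes by a ratio of 288 (counting interval 51.5 to 11420; edgeR adjusted p = 3.13e-10), and Il10 was lower by 1.70 ± 0.26 on the log2 scale (adjusted p = 4.17e-05). Osm differed by 0.26 ± 0.17 (adjusted p = 0.301), and Lif was at or under the floor. Upon LPS challenge 2 of 4 were called in M cells, beside 23.3% of genes. Il10 was again lower on noTC dishes, by 0.90 ± 0.12 (adjusted p = 1.64e-05), and Lif was higher by 0.95 ± 0.22 (0.00401), a call that was lost without M-TC-LPS replicate 1 (0.0514). Il6 and Osm differed by -0.06 and 0.01, with intervals from -0.23 to 0.11 and from -0.26 to 0.27.

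In the resting noTC libraries Il6 stood in a similar ratio to its level elsewhere in GM and M. Its excess over TC cells, scaled by library size, was 0.666% in GM and 0.710% in M of its mean elsewhere. Elsewhere means the 10 libraries that were neither resting TC nor of the same group. Both values lay within the range of the comparison genes described next. The comparison genes were those under 1 CPM in both resting TC libraries of the growth factor whose mean over those 10 libraries was at least 100 CPM. A rise upon LPS was not required of them. The 14 such genes of GM had a median excess of 0.679% (quartiles 0.654% and 0.758%), and the 18 of M 0.587% (0.533% and 0.647%), with ranges from 0.390% to 0.907% and from 0.0084% to 0.845%. In M, the 2 noTC libraries had medians of 0.690% and 0.478%. Among these genes were Il12b at 0.675%, Cxcl10 at 0.668% and Cxcl1 at 0.707% in GM, and Il1a at 0.651% and Il12b at 0.573% in M. The lowest in M were Rbp4 at 0.0084% and Cd38 at 0.265%.

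When this median share of each gene's level elsewhere was taken off the resting noTC libraries, the Il6 difference between dishes in GM fell from 4.76 to 0.85 and was no longer called (edgeR adjusted p = 0.731), with 0 and 23 counts remaining in the libraries. In M it was still called (adjusted p = 0.00996), with 50 and 14 counts remaining and a ratio to M-TC of 45.6 (counting interval 7.89 to 1828) in place of 288. That p-value and that interval take the share as exact. The medians of the 2 M-noTC libraries were 0.690% and 0.478%, and Il6, at 0.710%, lay within the range of the comparison genes. What the spread of the share leaves of the difference in M was not tested. After the subtraction the LPS responses of Il6 were 12.05 in GM-noTC and 10.65 in M-noTC on the log2 scale, in place of 8.14 and 8.00. The source of the share was not tested. The other members did not show such an excess, except Il10 in GM (0.558%) and Lif in M (0.348%), which rested on 3 counts and 1 count. The noTC minus TC difference at steady state was -19.5% of the mean of the other libraries for Osm in GM, -21.3% for Il10 in M, 4.95% for Osm in M and -0.0846% for Lif in GM. The share would amount to 0.0712 CPM of Il10 in M-noTC, beside a measured 1.11 CPM.

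**Figure D3:**
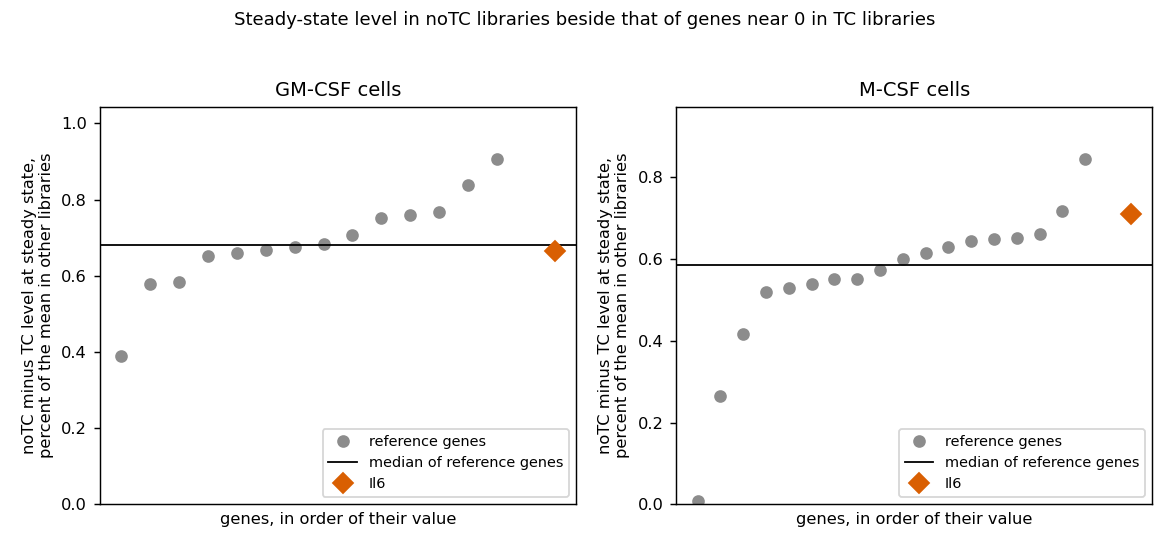
The noTC minus TC level at steady state as a percent of the mean in other libraries, for GM-CSF (left) and M-CSF cells (right). Grey points are the comparison genes in order of their value, the line is their median (0.679% and 0.587%), and the diamond is Il6, which lies at 0.666% and 0.710%.

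Tests of a difference between log2 differences asked whether the responses themselves depended on the dish or the growth factor. For dish by LPS, 1 of 4 members was called in GM, beside 0.783% of genes, and 1 of 4 in M, beside 10.6%. Both were Il6, whose LPS response in GM was smaller on noTC dishes by 4.83 ± 0.37 on the log2 scale (edgeR adjusted p = 2.05e-08), and after the subtraction the difference was -0.92 (0.884). For growth factor by LPS, Lif was called, as 1 of 4 on TC dishes beside 41.1% of genes, and as 1 of 4 on noTC dishes beside 36.2% (adjusted p = 0.0215 and 0.012). Its resting M level was at or under the floor, so no size is given, and the calls were lost with DESeq2 (0.06 and 0.0817), without either M-TC replicate (0.119 and 0.131) or without M-noTC replicate 2 (0.271). Osm did not pass, with differences of -0.29 ± 0.20 on TC and 0.27 ± 0.19 on noTC dishes (adjusted p = 0.265 and 0.295), although it did on noTC dishes with library size only (0.48, adjusted p = 0.0418). Il10 did not pass on either dish (adjusted p = 0.306 and 0.0842), with resting GM cells at or under the floor, but on noTC dishes it passed with DESeq2 (0.00954), without a filter (0.0419) and without GM-noTC replicate 2 (0.0232). Il6 did not pass on TC (0.0858) or noTC dishes (0.603), but on TC dishes it passed without a filter (0.0168), with only those libraries (0.0438) and without M-TC-LPS replicate 1 (0.0451). For dish by growth factor, 1 of 4 was called at steady state, beside 11.2% of genes, and 0 of 4 upon LPS, beside 10.6%. The call at steady state was Osm, with -0.71 ± 0.22 (adjusted p = 0.0366), which was lost with DESeq2 (0.0793) and without GM-TC replicate 2 (0.0691), either GM-noTC replicate (0.0648 and 0.12), either M-TC replicate (0.171 and 0.0569) or either M-noTC replicate (0.0621 and 0.161). Upon LPS DESeq2 also called 0, and the unadjusted p of edgeR was under 0.05 for 1 of 4, Lif (0.0172), and 0.349 or higher for the other 3.

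Upon LPS challenge Il6ra, Il6st and Lifr fell and Il10ra rose in each culture. Of 10 tested receptor transcripts, 3 were called higher and 3 lower for GM on TC dishes, 3 and 4 for GM on noTC dishes, 2 and 4 for M on TC dishes, and 3 and 4 for M on noTC dishes. Over all tested genes 32.8% to 37.6% were higher and 34.0% to 36.4% lower, so these counts lie near the share of any genes. Il6ra, which binds IL-6, had mean levels of 22.2 (GM-TC), 19.8 (GM-noTC), 99.0 (M-TC) and 69.0 CPM (M-noTC), and fell to 1.07, 1.38, 7.99 and 5.23 CPM. The log2 differences were -4.36 ± 0.16, -3.85, -3.63 and -3.72, with edgeR adjusted p = 1.05e-16 in GM-TC. It was lower in GM than in M in each state, by 2.16 in resting and 2.89 in LPS-challenged TC cells, and lower on noTC dishes in M by 0.52 and 0.61. Il6st, the shared subunit, lay between 123 and 143 CPM at rest and fell less, by 0.29 (TC) and 0.47 (noTC) for GM and by 0.78 and 1.0 for M cells. That fall was larger in M than in GM on TC dishes, by 0.49 on the log2 scale, and on noTC dishes, by 0.54.

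Lifr fell from 5.53, 11.1, 21.6 and 19.8 CPM to 1.85, 1.47, 6.41 and 4.91 CPM in the same order of groups. At steady state GM-noTC cells had more of it than GM-TC cells, by 0.99 on the log2 scale, and in M the difference was -0.13, so that the dish differences themselves differed by 1.12 (edgeR, called). Osmr, whose receptor OSM uses beside gp130, had group means from 0 to 0.607 CPM, near the floor, and was called higher upon LPS in M-noTC, from 0 counts to 10 over both libraries. Il10ra rose in each culture, by 1.13 (TC) and 1.22 (noTC) for GM and by 1.02 and 1.53 for M cells, to between 204 and 315 CPM. Il10rb stayed between 107 and 177 CPM, with changes of 0.29 and 0.35 (GM, called) and -0.18 (M-TC, called) and -0.01 (M-noTC). The Il10rb rises in GM were smaller than the shift of the median gene with library size only, so their direction rests on the scaling. That median went from -0.05 to -0.53 on TC and from -0.03 to -0.54 on noTC dishes. In resting M cells Il10ra was lower on noTC dishes by 0.66, as Il10 was. Per kb of exon Il10ra was above Il6st in each group, at 26.6 against 11.7 CPM in GM-TC and 90.1 against 6.43 CPM in M-TC-LPS.

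**Figure D4:**
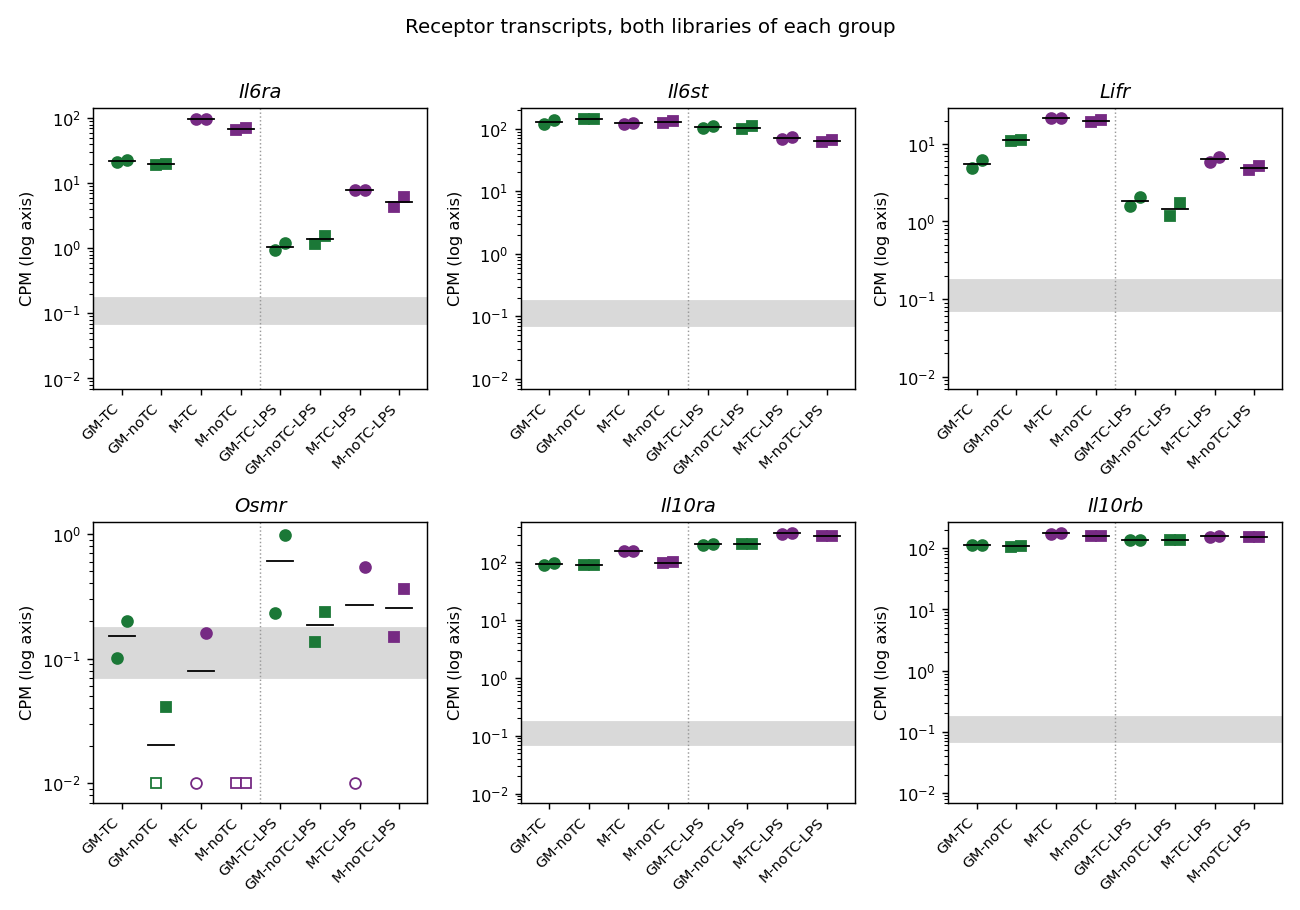
TMM-scaled CPM on a log axis of 6 receptor transcripts in both libraries of each group, with symbols, bars and the grey floor band as in the plot of the 4 cytokines. Il6ra and Lifr drop upon LPS (Il6ra from 22.2 to 1.07 CPM in GM-TC), Il6st drops less, Il10ra rises and Osmr stays near the floor.

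The wider pathway list held 69 genes, of which 56 were tested. Upon LPS challenge 42 rose and 10 fell in GM cells on TC dishes and 42 and 11 on noTC dishes, and 41 rose and 9 fell in M cells on each dish, beside 32.8% to 37.6% of all tested genes higher and 34.0% to 36.4% lower. Scaled by library size only, 33, 34, 37 and 34 rose and 15, 16, 13 and 13 fell (GM on TC, GM on noTC, M on TC, M on noTC), with called genes that changed direction numbering 5, 4, 2 and 3, beside 16.1% to 17.2% of all tested genes higher and 62.7% to 69.1% lower. Many of the listed genes are known LPS targets, so the list is no independent measure of gp130 or IL-10 signaling.

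Of 13 other ligands, 4 were tested, and Il27, Ebi3, Clcf1 and Il19 all rose in the 4 cultures. Clcf1, a gp130 ligand, was higher in GM than in M cells, as Lif and Osm were, at 15.7 CPM in GM-TC-LPS and 7.20 CPM in M-TC-LPS, a difference of 1.12 on the log2 scale. Ebi3, a subunit of IL-27, was higher in M, by 2.34 in TC cells upon LPS, and Il19, the neighbour of Il10, was also lower in GM, by 2.10. Il11, Il31, Il24 and Il20, among others, did not reach the filter.

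Among kinases, STATs and inhibitors, Socs3, the inhibitor that STAT3 induces and that binds gp130, rose by 4.28 and 4.19 in GM cells and by 8.51 and 7.85 in M cells, on TC and noTC dishes respectively. The rise was larger in M by 4.23 on TC and by 3.66 on noTC dishes on the log2 scale (edgeR, called in both). Socs3 lay at 25.3 CPM in resting GM-TC and 2.82 CPM in resting M-TC, and at 492 and 1026 CPM upon LPS. Socs1 and Cish, also inhibitors of cytokine signaling, shared this order of responses, with 3.53 and 1.47 for GM-TC beside 6.81 and 7.46 for M-TC cells. The level of Cish stayed higher in GM-TC-LPS than in M-TC-LPS, at 32.2 against 8.61 CPM per kb of exon, from 11.6 against 0.0485 at rest. Socs1 was lower in GM-TC-LPS, at 21.6 against 39.0. Jak2 rose by 3.06 in GM-TC and 4.48 in M-TC, and Stat3 by 0.86 and 1.87. For growth factor by LPS, the response was smaller in GM for 8 of 11 genes of this role and larger for 2 on TC dishes (library size only 7 and 3), and for 13 and 0 of 14 response genes (library size only 10 and 0). Over all genes it was smaller for 23.3% and larger for 17.8%, and with library size only for 10.4% and 39.1%.

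The response genes are those that STAT3 or IL-10 is known to induce in macrophages. In TC cells Il1rn, which encodes the antagonist of the IL-1 receptor, rose by 3.33 in GM and 6.26 in M, Pim1 by 1.63 and 4.44, and Nfil3 by 0.65 and 2.57. The level of Il1rn remained higher in GM-TC-LPS than in M-TC-LPS, at 414 against 117 CPM per kb of exon. At rest it was 41.3 in GM-TC against 1.53 in M-TC. Pim1 (162 against 272) and Nfil3 (14.9 against 26.6) were higher in M-TC-LPS than in GM-TC-LPS. Il4ra fell by 0.60 in GM-TC and rose by 1.39 in M-TC. In M cells upon LPS, 9 of 14 response genes were lower on noTC dishes and 1 higher, beside 12.9% and 10.4% of tested genes. At rest, where Il10 was lower on noTC dishes as well, 2 of the 14 were lower and 3 higher, beside 11.1% and 16.1%. With library size only the counts upon LPS were 7 and 1, beside 7.03% and 16.8%. The lower genes upon LPS included Il4ra (by 1.30), Cebpb (by 0.91), Bcl6 (by 0.77), Sbno2 (by 0.50) and Pim1 (by 0.40), and the higher one was Fgl2 (0.72). Socs3 was lower by 0.61 as well. Upon LPS in GM, 3 response genes were higher on noTC dishes and 0 lower, beside 2.08% and 0.727% of genes, namely Bcl3 (0.34), Etv3 (0.31) and Fgl2 (0.64).

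Of the 17 factors known to act on Il6 or Il10, Maf, a transcription factor of Il10, followed Il10 in its order of M over GM. It was lower in GM by 3.55 on TC dishes at rest and by 3.75 upon LPS, and lower on noTC dishes in M by 0.62 at rest and 0.37 upon LPS. Maf was not alone in this. On TC dishes 9 of the 17 were lower in GM and 4 higher at rest, and 11 and 5 upon LPS. Over all tested genes 28.9% were lower and 32.6% higher at rest, and 32.9% and 33.9% upon LPS. On noTC dishes in M, 6 were lower and 3 higher at rest, beside 11.1% and 16.1% of genes. Upon LPS these were 9 and 1, beside 12.9% and 10.4%. Irf4 had the opposite order to Maf, higher in GM by 3.76 and 5.27 on TC dishes. Nfkbiz, a cofactor that Il6 needs, rose by 6.89 in GM-TC and 4.89 in M-TC, and Arid5a, which stabilises Il6 mRNA, by 3.13 and 4.81. Zc3h12a, which degrades it, rose by 4.0 and 3.09. Of the proteins that bind AU-rich elements, Zfp36 rose by 1.45 in GM-TC and 4.04 in M-TC, and Zfp36l2 fell by 2.01 and 4.98. Upon LPS Zfp36 was higher in M, by 2.71 on TC dishes, and Zfp36l2 higher in GM, by 2.69.

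At steady state 8 of the 56 tested genes of the list were higher and 1 lower on noTC dishes in GM, beside 4.69% and 2.85% of all tested genes. The 8 included Il27 (1.60), Cd69 (1.36), Nfkbiz (0.82), Il1rn (0.69) and Lifr (0.99). After the subtraction described for Il6, Il27 had a group at or under the floor, so no size is given, and the differences of Cd69 and Lifr were 0.06 and 1.0. The values of Nfkbiz and Il1rn after the subtraction are not reported here, so theirs are those before it. In resting M cells 9 were higher and 13 lower on noTC dishes, beside 16.1% and 11.1% of genes, and Il6ra, Il10ra, Maf and Il10rb were among the lower.

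**Figure D5:**
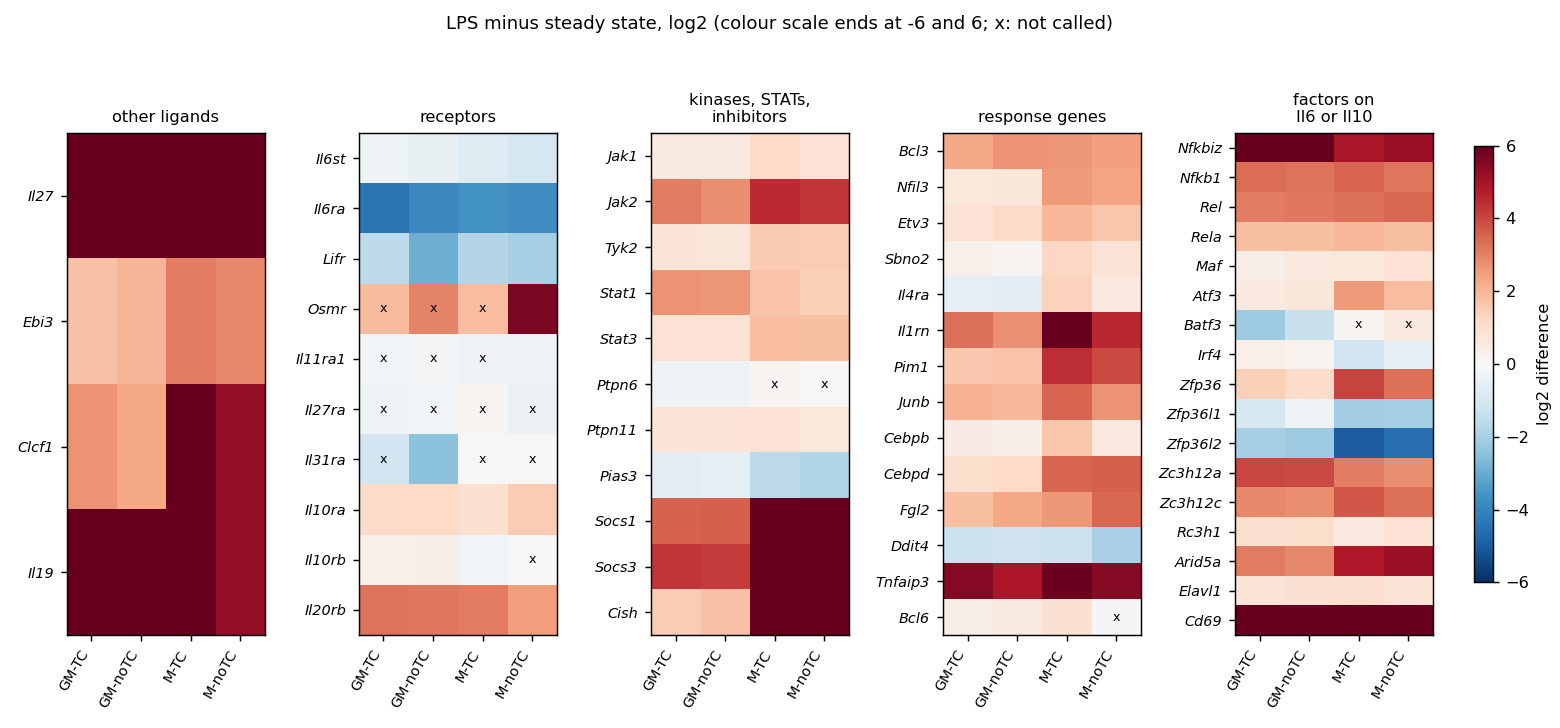
Log2 difference of LPS minus steady state for the 56 tested genes of the pathway list in the 4 cultures, by role, with red for higher and blue for lower upon LPS and x for values that were not called. The colour scale ends at -6 and 6, fitted values of genes with a group at 0 counts (such as Osmr in M-noTC) are no measure of size, and Socs1, Socs3 and Cish are darker in M than in GM.

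Genes whose pattern was most like that of a member were ranked by Pearson's r of log2 CPM over the 16 libraries, among 8839 genes with a group mean of 10 CPM or more. These r describe libraries that share growth factor, dish and LPS, so many genes reach such values. Among the genes closest to Il6 were Cxcl1 (0.989), Ptgs2 (0.987), Hsd17b12 (0.986) and Il12b (0.985), and among those closest to Il10 were Rcsd1 (0.990), Milr1 (0.983) and Tnfrsf14 (0.982). Among those closest to Lif were H2-M2 (0.993), Lap3 (0.993), Tnfsf4 (0.993) and Mmp25 (0.993), and among those closest to Osm were H2-M2 (0.993), Mdm2 (0.990) and Lap3 (0.989). H2-M2 and Lap3 thus stood in both lists. Between the members, Lif and Osm had r = 0.986 over the 16 libraries and Il10 had -0.042 with Lif and -0.041 with Osm. Over the 8 LPS libraries alone, Il10 stood opposite to the other 3, with r of -0.866 with Il6, -0.991 with Lif and -0.963 with Osm.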

How the data were processed

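RNA of 16 libraries was sequenced by the study after oligo(dT) selection with a kit that does not mark the strand. The authors used HISAT2 for alignment and RSEM for quantification, and deposited expected counts (estimated read counts per gene) that were not normalized. The submitters' processing notes also list fastp 0.18.0, Bowtie2 2.2.8 and StringTie 1.3.1, with no role given. The genome build and annotation are not given in the sources used here. Values were rounded to whole counts, which changed 6.56% to 8.19% of those in a library.

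Groups were taken from the sample titles. edgeR 4.0.16 in R 4.3.3 filtered genes by group, scaled with TMM factors (1.11 to 1.39 at steady state, 0.778 to 0.842 upon LPS) and fitted a quasi-likelihood model with a mean for each of the 8 groups over all 16 libraries, without a block. Of 16756 genes with a count, 12514 were tested. Calls have a BH-adjusted p under 0.05. The biological coefficient of variation was 4.75%. The labels do not say that the 2 libraries of a group came from separate mice, so p-values measure the spread between these libraries, which may be technical. An exact permutation test of 2 against 2 libraries cannot give a two-sided p below 0.333. A fold against a group at 0 counts is a lower bound against 3 counts per library, the larger floor of its 2 libraries, and with 1 to 3 counts a ratio with an exact 95% interval is given. Both cover counting error only.

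On counts simulated for 12514 genes with 200 changed, edgeR recovered 98, 96 and 91 of 100 genes changed 2-fold for LPS in GM-TC, dish in LPS-challenged M cells and growth factor by LPS on TC dishes, and 100 of 100 changed 4-fold in each. False calls numbered 9, 11 and 14. The simulation gave all genes the same dispersion and changed only genes above a minimum mean level. Its rates therefore do not describe groups with very low counts, such as Il10 in GM cells. The alternatives were DESeq2's size factors, library size only, no filter, only the libraries of a comparison, DESeq2 1.42.0, the study's thresholds of fold change over 2 and unadjusted p under 0.05, a replicate block, a subtraction of a share of the other libraries from resting noTC libraries, and leaving out each replicate. The 4 members, the pathway list by role (69 genes) and the marker lists were chosen with earlier results of these data known. Named are the 4 members throughout, genes of the pathway list by role, and the genes most like a member by Pearson's r, of which some are not reported here. Sequences came from RefSeq (GRCm38.p6) and GENCODE M21, whose build may not be that of the counts.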

Additional observations from a re-analysis of the deposited data

Results flagged for a closer look

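Each of the following is a difference between groups in how a transcript responded, by a test of that difference. The LPS response of Il6 was smaller on noTC than on TC dishes in GM cells, with a difference of -4.83 on the log2 scale (edgeR adjusted p = 2.05e-08). That call was lost after the subtraction (-0.92, adjusted p = 0.884). In M cells the response was smaller on noTC dishes as well (adjusted p = 3.81e-09, and 0.0231 after the subtraction, which takes the share as exact). There a group was at or under the floor and no size is given. The LPS response of Lif differed between GM and M cells on TC dishes (adjusted p = 0.0215) and on noTC dishes (0.012), again against resting M groups at or under the floor, and both calls were lost with DESeq2 (0.06 and 0.0817) and on leaving out a resting M library. The dish difference of Osm at steady state differed between GM and M cells by -0.71 on the log2 scale (adjusted p = 0.0366), a call that was lost with DESeq2 (0.0793), with only the libraries of the comparison (0.0635) and on leaving out 7 of its 8 libraries in turn.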

How the results depend on the processing

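Of 534 values of the members under alternatives, 503 kept their side of the threshold, 15 lost the call and 16 gained it. Among called values 0 changed direction, whereas values that were not called could do so. For example, the Il6 growth factor difference on noTC dishes at steady state went from 0.28 to -0.98 after the subtraction. A replicate block changed none of 72 calls, and with it 4 members were called for LPS in GM-TC, as without it. Same-numbered libraries deviated together with correlations between -0.0636 and 0.02, so the numbers were not taken as pairs.

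The number of members called changed as follows, and the cause was not tested beyond what each alternative's construction shows. With library size only, 2 were called for growth factor by LPS on noTC dishes, in place of 1. Without a filter, 2 in place of 1 were called for dish by LPS in M, for growth factor by LPS on either dish and for dish by growth factor at steady state. With only the libraries of a comparison, 1 in place of 2 was called for the dish in resting GM cells, 2 in place of 1 for growth factor by LPS on TC dishes, and 0 in place of 1 for dish by growth factor at steady state. DESeq2 called 1, 0 and 0 in these, respectively. At a fold change over 2 and unadjusted p under 0.05, 1 was called for the dish in resting GM, 0 for the dish in LPS-challenged M, and 2 each for dish by LPS in GM, growth factor by LPS on either dish and dish by growth factor at steady state. After the subtraction, 1 was called for the dish in resting GM, 0 for dish by LPS in GM and 2 for dish by LPS in M.

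Leaving out 1 library gave 1 to 2 called members for the dish in resting GM and in LPS-challenged M, 0 to 2 for growth factor by LPS on TC and on noTC dishes, and 0 to 1 for dish by growth factor at steady state. The group left with 1 library is assumed to vary like the others. Of 384 such values, 364 were the same, 17 lost and 3 gained the call. With library size only, the higher and lower genes of the growth factor comparison at steady state were 19.6% and 50.8% on TC dishes and 19.7% and 52.1% on noTC dishes, in place of 32.6% and 28.9% and of 31.4% and 30.7%. For growth factor by LPS on noTC dishes they were 30% and 11% in place of 16.9% and 19.3%, for dish by LPS in M 6.11% and 3.88% in place of 3.11% and 7.48%, and for dish by growth factor upon LPS 3.76% and 7.69% in place of 6.87% and 3.71%. With reference genes at 50 CPM or more, the share of the other libraries was 0.680% in GM and 0.573% in M.

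Over all genes, 944 were called for the dish in resting GM cells, 329 with only those libraries and 2006 without GM-TC replicate 1. For the dish in GM cells upon LPS it was 351 genes, 557 without a filter, 529 with only those libraries and 135 without GM-TC-LPS replicate 1. For dish by LPS in GM it was 98 genes, 227 without a filter, 61 with only those libraries, 17 after the subtraction, and 50 to 531 with 1 library left out, the highest without GM-TC replicate 1. At a fold change over 2 and unadjusted p under 0.05, the genes called for LPS were 3290 to 4523 in place of 8385 to 9258, for growth factor 2782 to 3197 in place of 7697 to 8358, and for the dish in M 540 and 354 in place of 3398 and 2917.

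Il10 in GM cells rests on at most 11 counts per library and Lif in resting M cells on at most 1, and at this depth a difference within their counting intervals was not detectable.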
